A study of Homo sapiens with 2 samples.

Results

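The genes described here encode the parts of the Wnt pathway that send, receive and dampen the signal: Wnt ligands, Frizzled receptors with their LRP co-receptors, secreted and membrane-bound antagonists, R-spondins with their LGR receptors, the ubiquitin ligases that remove Frizzled, the cytoplasmic inhibitors of beta-catenin and the TCF/LEF factors. Members were taken by gene symbol from the platform's probe annotation by a rule that holds no measured value, though it was drawn up with earlier results of these data known, and 62 genes with 70 probes were found among 18638 genes with 21706 probes. Of these, 59 genes were above background on at least 1 array and 57 on both. RSPO3, SFRP4 and WNT8A were not above background on either array, and TCF7 was not analysed here.

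In this pathway a Wnt ligand, carried out of its cell by the protein WLS, binds a Frizzled receptor together with LRP5 or LRP6 and stops a complex of AXIN, APC and kinases from marking beta-catenin for destruction. Beta-catenin then enters the nucleus and, with TCF/LEF factors, switches on genes that include several of the pathway's own inhibitors, among them AXIN2, NKD1, NOTUM, APCDD1, DKK1, RNF43 and ZNRF3. In the intestinal crypt this signal maintains stem cells that carry LGR5. Most colon carcinomas, the SW620 line included, carry truncated APC, so that beta-catenin is active with little need of a ligand.

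The study asked which transcripts differ in colon cancer cells that express CDR1AS, a circular RNA known for binding the microRNA miR-7. SW620 cells, an established line from a colon carcinoma metastasis, were measured as CDR1AS-expressing cells (1 array) and as cells with a control lentivirus (1 array), both in normal culture in DMEM with serum. The labels do not say whether either population is a clone or a pool, nor which vector and promoter carried CDR1AS. Each array measured Cy5-labelled amplified total RNA, and 1 array per group leaves no replicate error, no test and no p-value, so each difference below is between 2 arrays.

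Of 24459 gene probes, 87.2% on the CDR1AS array and 84.4% on the control array were above background, defined as the mean of 384 blank spots plus 2 SD (a spot intensity of 72.1 on the CDR1AS array and 69.1 on the control array). Ratios are log2 values of the CDR1AS array over the control array after normexp correction with an offset of 50 and quantile normalisation, which pulls the ratios of dim genes towards 0. Beside them stand the authors' deposited normalised intensities, in arbitrary units on a linear scale with a median of 25 on each array. Levels of different genes are not compared, because probes differ in brightness. The only measure of error is technical: log2 intensities of 24 repeats of a positive-control spot on 1 array had an SD between 0.10 and 0.24, and ratios from different probes of a gene differed with an SD of 0.25 (2161 genes with a pair of probes). None of the probes was matched to circular CDR1AS, and the host transcript LINC00632 sat close to background, at spot intensities of 73.3 on the CDR1AS array and 69.7 on the control array, so the arrays' labels have no check here. All 10 colon epithelial markers with a probe were above background on at least 1 array, among them EPCAM, VIL1 and KRT18. Of these 10, CDX2, a transcription factor of intestinal identity, had a log2 ratio of −0.82. EPCAM (−0.54) and KRT18 (−0.48) were also lower beyond the SD between probes (10.4% of all genes were). Higher beyond it were 0 of the 10 (10.5% of all genes were). The part of these markers in the results below was not tested. Markers of other cell types were in part above background: 5 of 8 fibroblast markers (DCN, LUM, PDGFRA, PDGFRB and THY1, ratios −0.34 to 0.06), 4 of 5 endothelial markers (−0.14 to 0.51, the highest being the bound of PECAM1) and 3 of 6 leukocyte markers (CD14, CD3E and LYZ, −0.13 to −0.05). The fibroblast collagen genes COL1A1, COL1A2 and COL3A1 and the pan-leukocyte gene PTPRC were above background on neither array.

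Among the 59 measured Wnt genes, 2 antagonists were at least 2-fold lower on the CDR1AS array, APCDD1 and DKK1, and 1 ligand, WNT6, was at least 2-fold higher. Over all 16685 measured genes, 0.575% were that much lower and 0.755% that much higher. APCDD1, DKK1 and WNT6 each had 1 probe, so each of their ratios rests on 1 spot per array. At 1.5-fold, NOTUM and AXIN2 joined the lower side (4 genes, against 2.23% of all genes) and FZD10 the higher side (2 genes, against 2.61% of all genes). Most ratios were small, in the group as over all genes. Within the SD between probes of a gene lay 45 of the 59 members and 13205 of all 16685 genes. Beyond that SD, 11 members were lower (10.4% of all genes were) and 3 were higher (10.5% of all genes were). The median ratio of the Wnt genes was −0.00, as it was −0.01 over all genes, while their quartiles were −0.08 and 0.07 against −0.10 and 0.09. In bulk RNA, fewer cells with a transcript and less of it per cell cannot be told apart.

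**Figure D1:**
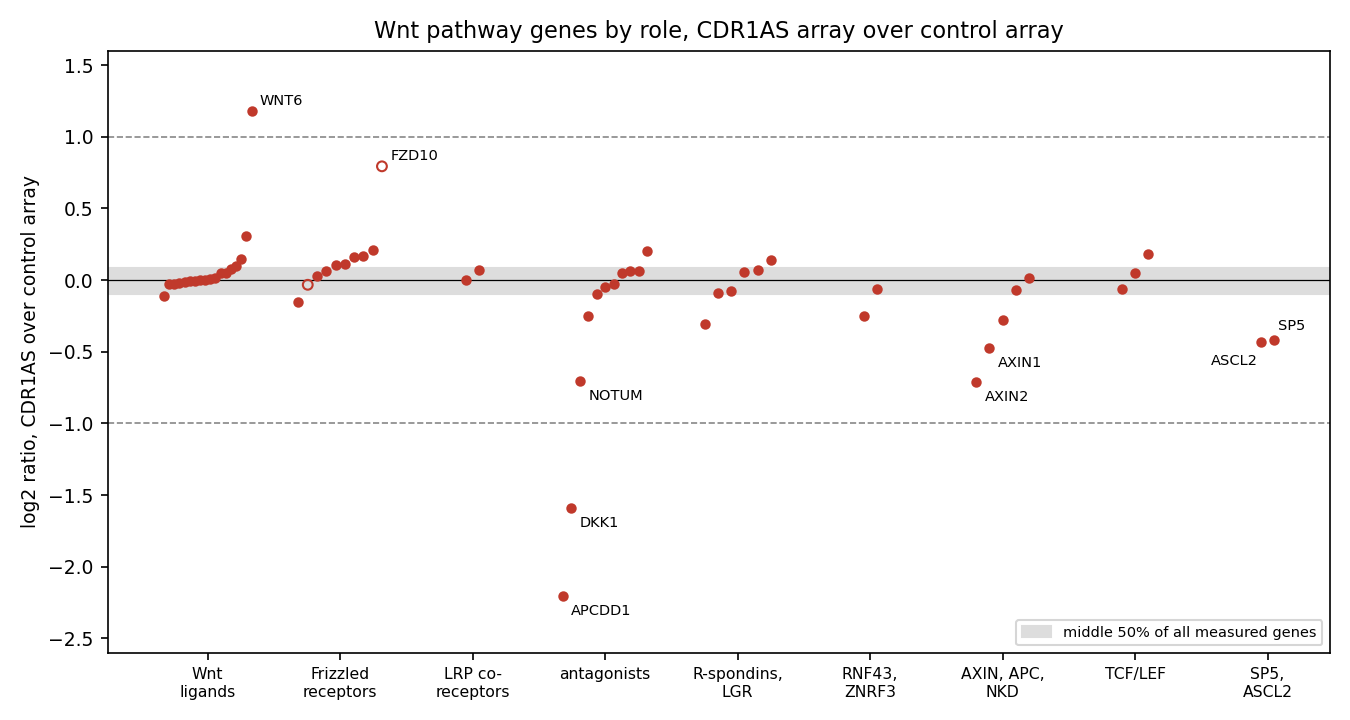
Log2 ratio of the CDR1AS array over the control array (vertical axis) for the 59 measured Wnt genes, grouped by role along the horizontal axis, 1 point per gene. Open circles are FZD10 and FZD1, each above background on 1 array only, dashed lines mark 2-fold and the grey band is the middle of all 16685 genes (quartiles −0.10 and 0.09). APCDD1 and DKK1 lie below the lower dashed line and WNT6 above the upper one, while ligands other than WNT6 and WNT7A stay between −0.11 and 0.15.

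The spots of most members were dim. Only 19 of the 59 members exceeded 2 times the background limit on both arrays, and among these 12 ratios were below 0 and 7 above, with a median of −0.15. The 7398 genes that passed the same limit had a median of −0.01, and 51.4% of them were below 0. Of the 19 brighter members 4 were at least 1.5-fold lower, against 3.70% of genes in that range. All 4 were among 8 brighter members that beta-catenin is known to induce, a grouping made after their values were seen (median −0.57). The other 11 brighter members had a median of 0.00, with 6 above 0 and 5 below. The 40 members that did not pass that limit were dim, so the offset pulls their ratios towards 0. In the deposited table, which has no offset, 2 members were at least 2-fold lower (2.24% of all genes) and 2 at least 2-fold higher (3.31% of all genes), APCDD1 and DKK1 on the lower side and WNT6 and FZD10 on the higher.

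**Figure D2:**
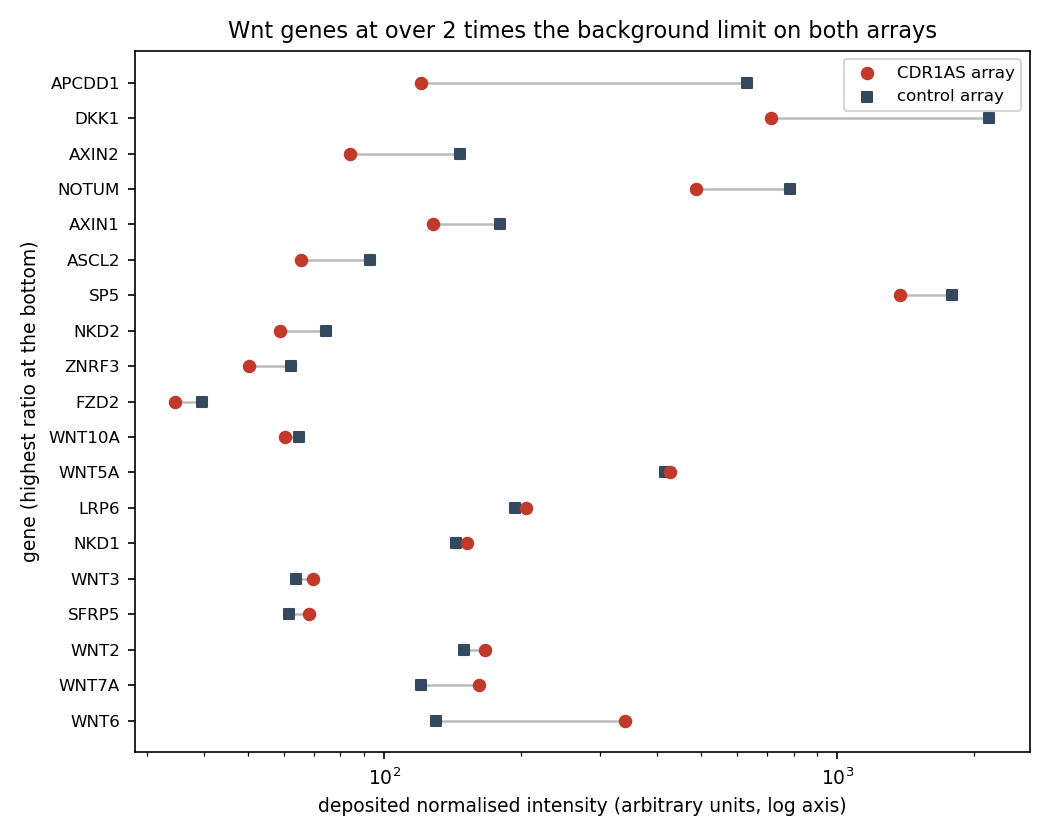
Deposited normalised intensity (horizontal axis, arbitrary units, log scale) of the 19 Wnt genes at more than 2 times the background limit on both arrays, with circles for the CDR1AS array and squares for the control array, 1 value each. Genes are ordered by their log2 ratio, from WNT6 at the bottom (339.9 on the CDR1AS array, 129.8 on the control array) to APCDD1 at the top (120.4 and 632.9), and distances between genes carry no meaning.

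The antagonists held the largest differences of the group and also many members without one. APCDD1 is a membrane-bound glycoprotein that binds Wnt and LRP proteins and blocks the signal. Its deposited intensity was 120.4 on the CDR1AS array and 632.9 on the control array, and its log2 ratio was −2.21, or 4.61-fold lower. DKK1, a secreted protein that takes LRP5 and LRP6 away from the receptor complex, had 714.7 on the CDR1AS array and 2160.5 on the control array. That is a log2 ratio of −1.59, or 3.01-fold lower, and both spots were far above background. NOTUM, a secreted enzyme that removes the lipid from Wnt ligands and so inactivates them, had 487.3 on the CDR1AS array and 784.9 on the control array by its brighter probe. Its other probe had 340 on the CDR1AS array and 588.6 on the control array, and the log2 ratios of these probes, −0.70 and −0.80, differed by less than the SD between probes. Spots around the APCDD1, DKK1 and NOTUM spots on the array had median ratios of 0.06, −0.02 and 0.02 to 0.05. The 20 measured genes that flank each gene on its chromosome had medians of −0.02 for APCDD1, 0.01 for DKK1 and −0.14 for NOTUM.

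The other antagonists were within 1.5-fold. DKK2, which can act for or against LRP6, had 12.6 on the CDR1AS array and 19.2 on the control array, with a log2 ratio of −0.25, just beyond the SD between probes, and a deposited ratio of −0.61. DKK4, another LRP antagonist, had 18.2 on the CDR1AS array and 12.2 on the control array, with a ratio of 0.20 (−0.06 after local background subtraction). DKK3, a divergent family member, had a ratio of 0.05. The secreted Frizzled-related proteins bind Wnt ligands outside the cell, and SFRP1 (−0.05), SFRP2 (−0.03), SFRP5 (0.07) and FRZB (−0.10) were all within the SD between probes, as was WIF1 (0.07), a further secreted Wnt-binding protein. Of 11 measured antagonists 3 were at least 1.5-fold lower (2.23% of all genes were) and 0 were that much higher (2.61% of all genes were).

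Promoter sequence is shown for the 3 members past 2-fold, as the stretch where TCF/LEF factors could act on them. Each run covers 250 bases before and 50 after the gene's start on the plus strand of GRCh38.p14, credited to RefSeq: chr18:10454385-10454684 for APCDD1, chr10:52314031-52314330 for DKK1 and chr2:218859555-218859854 for WNT6. Capitals mark the letters CTTTGA on either strand (TCAAAG when read on the other), a form of the TCF/LEF motif. Its shorter core, CTTTG, is not marked where the final A is missing.
APCDD1: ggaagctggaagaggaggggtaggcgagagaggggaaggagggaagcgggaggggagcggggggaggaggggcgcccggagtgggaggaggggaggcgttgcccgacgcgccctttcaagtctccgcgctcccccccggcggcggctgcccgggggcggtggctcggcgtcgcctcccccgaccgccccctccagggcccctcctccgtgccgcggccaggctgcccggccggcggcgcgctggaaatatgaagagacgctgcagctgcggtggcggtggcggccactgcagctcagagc
DKK1: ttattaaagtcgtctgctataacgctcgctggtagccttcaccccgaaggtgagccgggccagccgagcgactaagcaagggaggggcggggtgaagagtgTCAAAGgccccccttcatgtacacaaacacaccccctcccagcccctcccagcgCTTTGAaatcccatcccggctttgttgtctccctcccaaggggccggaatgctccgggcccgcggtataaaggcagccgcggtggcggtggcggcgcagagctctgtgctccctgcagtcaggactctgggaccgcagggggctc
WNT6: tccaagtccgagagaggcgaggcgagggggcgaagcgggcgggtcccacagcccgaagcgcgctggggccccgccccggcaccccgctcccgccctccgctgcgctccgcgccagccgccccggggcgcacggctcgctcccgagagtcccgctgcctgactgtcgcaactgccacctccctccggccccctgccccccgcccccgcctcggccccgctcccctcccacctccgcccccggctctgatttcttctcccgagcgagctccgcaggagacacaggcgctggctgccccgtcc
The DKK1 window holds the letters 2 times, 1 on each strand, beginning 149 and 95 bases before the start, while the APCDD1 and WNT6 windows hold no match. Across 35116 RefSeq promoters of the same length 12.9% hold CTTTGA. Among the 39 measured members that matched a promoter entry 2 did, DKK1 and SP5. The shorter CTTTG was held by 47.5% of the promoters and by 11 of the 39 members (28.2%), DKK1 and SP5 among them. A match is letters only, and the windows are GC-rich (76.0% for APCDD1, 63.7% for DKK1 and 78.0% for WNT6, with a median of 58.7% over all promoters).

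Of 5 inhibitors inside the cell, AXIN2 alone was past 1.5-fold. AXIN2, a scaffold of the destruction complex that beta-catenin itself induces and that is widely used as a readout of the pathway, had a deposited intensity of 83.9 on the CDR1AS array and 147 on the control array. Its log2 ratio was −0.71, or 1.64-fold lower. AXIN1, the constitutive scaffold, had 127.9 on the CDR1AS array and 180.2 on the control array, with a ratio of −0.48. Naked cuticle homologues bind Dishevelled and restrain the signal. NKD1 had 151.9 on the CDR1AS array and 143.7 on the control array (ratio 0.02). NKD2 gave −0.28 by its brighter probe and −0.05 by the other. After local background subtraction NKD1 had −0.38 and NKD2 0.33. APC, the tumour suppressor of the same complex, was close to background, with spots of 79.9 on the CDR1AS array and 78.7 on the control array, deposited intensities of 4.8 and 6.2 and a ratio of −0.07. Its transcript level says nothing of the truncated protein.

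The ubiquitin ligases RNF43 and ZNRF3 clear Frizzled from the membrane, and R-spondins bound to LGR receptors hold them back. ZNRF3 had 50.3 on the CDR1AS array and 62.4 on the control array, a ratio of −0.25, which became 0.23 after local background subtraction. RNF43 was dim, at 5.9 on the CDR1AS array and 7.1 on the control array (−0.06). LGR5, the receptor that marks crypt stem cells, had 21.9 on the CDR1AS array and 32.1 on the control array. Its log2 ratio was −0.31, just beyond the SD between probes. Of 5 listed intestinal stem and Paneth cell markers, LGR5 among them, 3 were measured. The others measured were SMOC2 (0.14) and DEFA5 (−0.09), both within that SD, while OLFM4 and DEFA6 were above background on neither array. LGR4 (0.07) and LGR6 (0.06) were level, as were the ligands RSPO1 (−0.08), RSPO2 (−0.09) and RSPO4 (0.14).

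None of the 5 measured transcription factors was past 1.5-fold. SP5, an SP-family factor that follows Wnt signalling closely, had 1372.9 on the CDR1AS array and 1792.2 on the control array, with a log2 ratio of −0.42, but 1.55 after local background subtraction. ASCL2, the basic helix-loop-helix factor of intestinal stem cells, had 65.4 on the CDR1AS array and 92.9 on the control array, with a ratio of −0.43. LEF1 had 30.6 on the CDR1AS array and 23.3 on the control array (0.18). TCF7L2, the main TCF factor of the intestine, was close to background by its probe (deposited 4.2 on the CDR1AS array and 3.2 on the control array, ratio 0.05), as was the repressor TCF7L1 (−0.06).

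The ligands gave 1 difference past 2-fold. WNT6 had 339.9 on the CDR1AS array and 129.8 on the control array, a log2 ratio of 1.18 or 2.26-fold higher. WNT10A, which lies beside WNT6 on chromosome 2, had a ratio of −0.11, and the 20 measured genes around WNT6 had a median of −0.00. WNT7A followed at 161.6 on the CDR1AS array and 120.8 on the control array (0.31), and WNT7B at 0.15. WNT5A, the best known ligand of the beta-catenin-independent branch, had 426.8 on the CDR1AS array and 415.7 on the control array (−0.03), and its other probe was not above background. WNT2 (0.08) and WNT3 (0.05) were above 2 times the limit on both arrays and level. The other measured ligands were WNT1 (−0.02), WNT2B (−0.01), WNT3A (0.05), WNT4 (−0.01), WNT5B (−0.00), WNT8B (0.10), WNT9A (0.01), WNT9B (−0.00), WNT10B (−0.03), WNT11 (0.02) and WNT16 (−0.01). These were dim, so folds of that size cannot be resolved for them.

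Among the receptors FZD10 alone was past 1.5-fold. Of 10 measured Frizzled genes 8 were above 0 (47.2% of all genes were), with a median of 0.11. FZD10, a receptor scarce in normal adult tissue and raised in some colon carcinomas, was above background on the CDR1AS array only. Its spot was 116.7 against the limit of 72.1 on the CDR1AS array and 68.9 against 69.1 on the control array, with deposited intensities of 21.6 and 1.5. In the main setting FZD10 was therefore at least 1.73-fold higher (log2 bound 0.79), and the deposited ratio of 14.4 rests on a control value at the floor. The log2 bound was 0.10 after local background subtraction. FZD5 (0.21), FZD3 (0.17), FZD6 (0.16), FZD8 (0.11), FZD9 (0.10), FZD4 (0.06) and FZD7 (0.03) were within the SD between probes, as was FZD2 (−0.15). After local background subtraction FZD5 had −0.78 and FZD2 −0.71. FZD1 was at the limit on both arrays (−0.03). The co-receptors LRP6, at 205.3 on the CDR1AS array and 194.7 on the control array (0.00), and LRP5 (0.07) were level.

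Several members lie on chromosome 2, where a stretch of neighbouring genes was higher together on the CDR1AS array. The 20 measured genes around FRZB had a median ratio of 0.42, those around SP5 of 0.29 and those around FZD7 of 0.19. FRZB (−0.10), SP5 (−0.42) and FZD7 (0.03) were each below the median of their neighbours in the main setting. FRZB and FZD7 did not pass 2 times the background limit on both arrays, so the offset pulls their ratios towards 0. SP5 had 1.55 after local background subtraction. Around FZD5 the median was 0.02 and around WNT10A it was 0.02.

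Members that beta-catenin is known to induce were looked at together, a grouping made after their values were seen. Of 12 measured (APCDD1, DKK1, DKK4, NOTUM, AXIN2, NKD1, RNF43, ZNRF3, LGR5, SP5, ASCL2 and LEF1), 9 were below 0, with a median log2 ratio of −0.36. Over all genes 52.7% were below 0. The 47 other members had a median of 0.02, and 0 of them were at least 1.5-fold lower (2.23% of all genes were). That count was 2 in the deposited table (DKK2 at −0.61 and RSPO1 at −0.64), where 1043 of all 16305 genes were that much lower. After local background subtraction it was 3 (AXIN1 at −1.32, FZD2 at −0.71 and FZD5 at −0.78), where 1385 of all 16685 genes were. The groupings differ in brightness: 8 of the 12 and 11 of the 47 passed 2 times the background limit on both arrays. The offset therefore pulls more of the 47 towards 0. Among the brighter genes the medians were −0.57 (7 of 8 below 0) and 0.00 (5 of 11 below 0). Of all genes past that limit 51.4% were below 0. NKD1, LEF1 and DKK4 were the beta-catenin-induced members above 0, so these did not go 1 way throughout. After local background subtraction 8 of the 12 were below 0 (9491 of all 16685 genes were), with a median of −0.34, but membership changed. SP5 (1.55), ZNRF3 (0.23) and RNF43 (0.01) were then above 0, and NKD1 (−0.38) and DKK4 (−0.06) below.

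A list of described beta-catenin targets outside the group held 2 genes past 2-fold, both higher. Of 32 measured among 38 listed, 12 were below 0 and 20 above. Their median was 0.08, and 2 were at least 2-fold higher (0.755% of all genes were) and 0 that much lower (0.575% of all genes were). The higher ones were JUN, an AP-1 factor, at 289.8 on the CDR1AS array and 56.1 on the control array (1.90), and PLAUR, the urokinase receptor, at 198.2 on the CDR1AS array and 78.2 on the control array (1.05). After local background subtraction they had 0.98 and 0.49, within 2-fold. MYC, at 504.7 on the CDR1AS array and 458.9 on the control array, had a ratio of 0.06. CCND1, the cyclin D1 gene, had 1360.8 on the CDR1AS array and 1164.9 on the control array (0.19), and CD44 gave 0.14 (−0.17 after local background subtraction). The matrix protease gene MMP7, close to background on the CDR1AS array, had 4 there and 29.9 on the control array (−0.94). It was past 2-fold lower with an offset of 16 (−1.60) and in the deposited table (−2.90). After local background subtraction MMP7 had −0.05, and it did not pass 2 times the background limit on both arrays. MYC, CCND1, CD44 and MMP7 were named after their values were seen, as the targets most often used as readouts.

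Among 66 other measured components of the pathway (71 listed, median 0.03), 1 was past 2-fold, a share close to the 1.33% of all genes. WLS, the carrier that takes Wnt ligands to the cell surface, had a spot of 236.4 on the CDR1AS array and 70.7 on the control array, against limits of 72.1 and 69.1. Its log2 ratio was 1.86, or 3.64-fold higher. The deposited intensities were 76.4 on the CDR1AS array and 2.4 on the control array, so the size of the difference is poorly determined, and the ratio was 0.81 after local background subtraction. BAMBI, a pseudoreceptor that beta-catenin induces, had 483.6 on the CDR1AS array and 899 on the control array (−0.92), but its dim second probe gave −0.13. CTNNB1, which encodes beta-catenin, had 76.2 on the CDR1AS array and 139.7 on the control array (−0.75, or 1.68-fold lower), but its ratio was 0.63 after local background subtraction. CSNK1E, a casein kinase of the pathway, had 590.2 on the CDR1AS array and 352.2 on the control array (0.66). These 3 were named after their values were seen. Protein and nuclear beta-catenin were not analysed here.

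**Figure D3:**
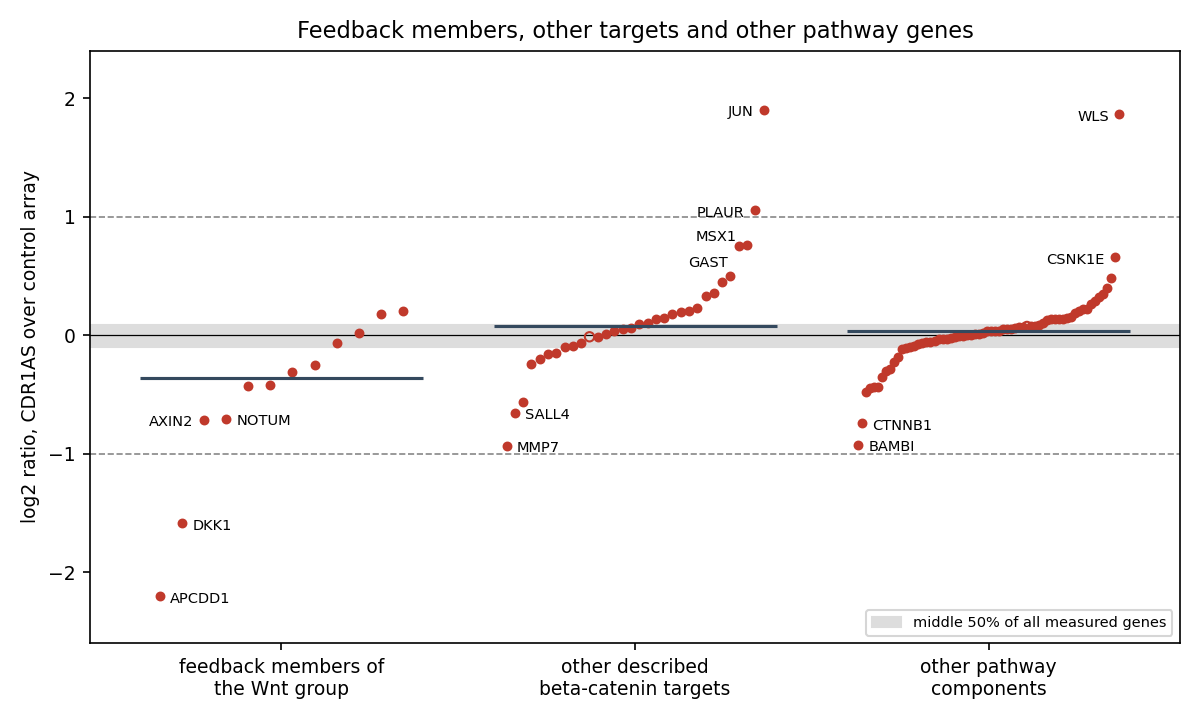
Log2 ratio of the CDR1AS array over the control array (vertical axis) for the 12 measured Wnt genes that beta-catenin is known to induce, 32 other described beta-catenin targets and 66 other pathway components, 1 point per gene sorted by value, with open circles for genes above background on 1 array only. Horizontal bars are medians (−0.36, 0.08 and 0.03), dashed lines mark 2-fold and the grey band is the middle of all measured genes. The first grouping was made after its values were seen, and the groupings were not matched for brightness. BAMBI, which beta-catenin also induces, stands among the other components.

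The members past 1.5-fold kept their direction in all settings tried, which reuse the same 2 arrays. APCDD1, DKK1, AXIN2 and WNT6 each had 1 probe, above 2 times the background limit on both arrays. A filter at that limit, no filter and the median of a gene's probes therefore could not change their ratios. APCDD1 ranged from −2.39 to −1.56, DKK1 from −3.32 to −1.55, NOTUM from −1.52 to −0.65, AXIN2 from −1.15 to −0.66 and WNT6 from 1.05 to 1.39. Subtraction of the local background column turned SP5 to 1.55 and left FZD10 at a bound of 0.10. At the SP5 spot that column read 792 on the CDR1AS array and 3454 on the control array. For DKK1 it read 1674 on the CDR1AS array, above the spot itself at 1632.

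**Figure D4:**
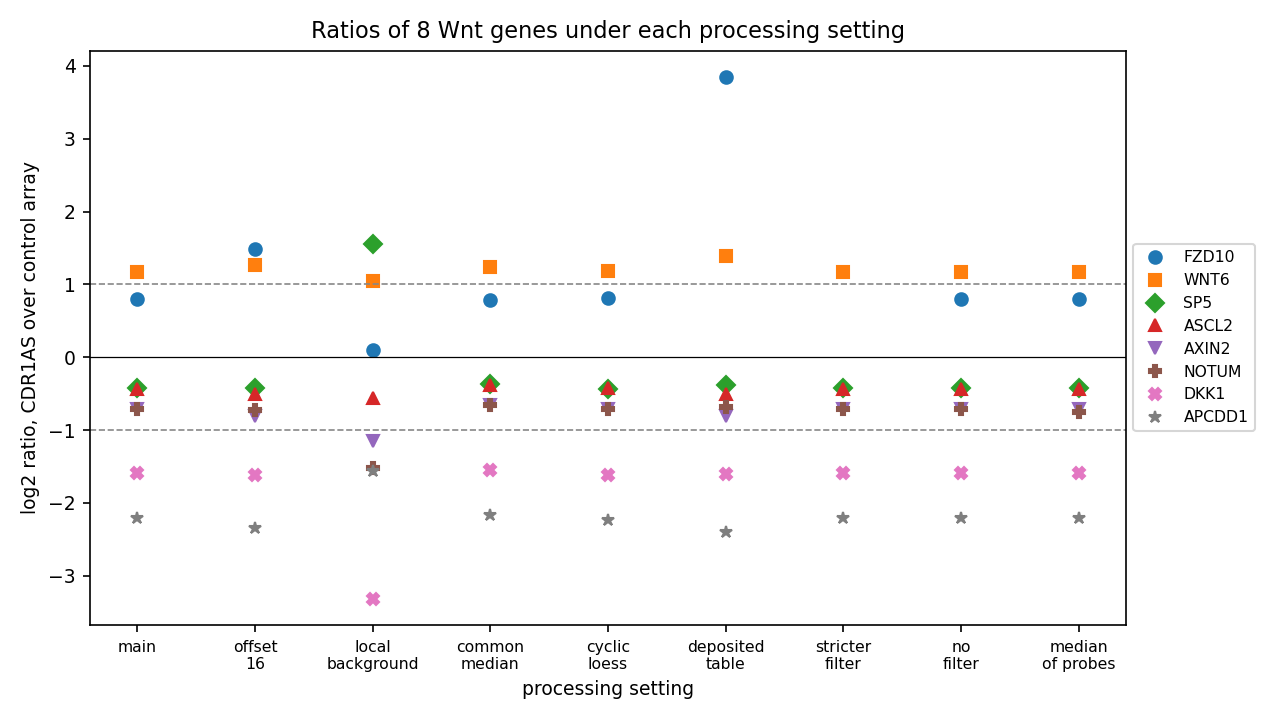
Log2 ratio of the CDR1AS array over the control array (vertical axis) for 8 Wnt genes under the main setting and 8 alternatives (horizontal axis), 1 symbol per gene, with dashed lines at 2-fold. FZD10 has no value under the stricter filter. Among these settings SP5 was above 0 after local background subtraction alone (1.55), and FZD10 ranged from 0.10 to 3.85.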

How the data were processed

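Total RNA of both SW620 populations was amplified with amino allyl nucleotides and coupled to Cy5, per the labels' protocols. The authors' spot files hold the median intensity of each spot at 635 nm, read at 3 scanner gains, per the file headers. The scanner, the joining of the gains and the design's genome build were not given in the sources used here. The authors' deposited value table was set against the spot intensities: each column is a straight line of its array (largest residual 0.0559 units on the CDR1AS array and 0.0510 on the control array) that reaches 0 near the blank level, so it is linear, uncentred, with a median of 25 on each array, and no unknown in scale or direction remained.

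From 27456 positions per array, control and empty spots and 1 gene probe with a quality flag were left out. The remaining spots were processed in R 4.3.3 by limma 3.58.1 (normexp on all spots without the local background, which rises with the spot, then quantile and log2). Each gene was read from its brightest probe if either array held it above background. Where only 1 array did, the fold is a lower bound, taken against the lowest above-background value of the other array or the probe's own value there if higher. Of 24459 probes, 21706 had a gene symbol. Genes at or past 2-fold were counted and read beside the share over all genes, and 8 alternatives were run. The steps were tested on simulated data. The members, lists and rule for naming genes were chosen with earlier results of these data known. The rule gave each measured member a ratio, and values on both arrays to members past 1.5-fold (2-fold in the deposited table) and to APC, AXIN2, LGR5, RNF43, TCF7L2 and LEF1; values of further genes were chosen after they were seen. Gene order on chromosomes and promoters came from RefSeq GRCh38.p14.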

Additional observations from a re-analysis of the deposited data

How the results depend on the processing

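With 1 array per group no replicate could be left out. No paired analysis was possible because each group has 1 array. The count of Wnt genes at least 2-fold lower was 2 in all settings except local background subtraction, where it was 5 (APCDD1, DKK1, NOTUM, AXIN1 and AXIN2). The count at least 2-fold higher was 1, but 2 with an offset of 16 and in the deposited value table (WNT6 and FZD10) and 2 after local background subtraction (WNT6 and SP5). Over all genes 222 were past 2-fold, against 401 with an offset of 16, 1276 after local background subtraction, 904 in the deposited table and 140 with the stricter filter of 2 times the background limit on both arrays. Other pathway components past 2-fold numbered 1, against 4 after local background subtraction (BAMBI, CSNK1A1, CTNNBL1 and DVL1, without WLS), 3 in the deposited table and 0 with the stricter filter, which WLS did not pass. Described targets past 2-fold numbered 2, against 4 with an offset of 16 (MMP7 and SALL4 added, both lower) and 8 in the deposited table (MMP7 and CDH3 lower). After local background subtraction it was 3 other genes, CCND1 (1.87), SOX9 (2.08) and KLF5 (−1.66), without JUN and PLAUR. The median of the Wnt genes moved by less than 0.1 in all settings except the stricter filter, where 19 genes had −0.15. Cyclic loess, scaling to a common median, no filter and the median of a gene's probes moved none of the counts by more than 1.5 times. Causes of these differences were not tested. The closeness of most members to the blank level limits what can be seen of them.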
